A study of Mus musculus with 8 samples.

Results

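The vascular endothelial growth factors (VEGF), the platelet-derived growth factors (PDGF) and the neuropilins were followed in RNA-seq libraries labelled as wounds treated with rFGF4 (recombinant fibroblast growth factor 4) and as wounds treated with PBS, the buffer control. The members were the 9 rows of the deposited gene table named VEGFA, VEGFB, VEGFC, PGF, PDGFA, PDGFB, PDGFC, NRP1 and NRP2, of 58304 genes kept. Per the labels, the rFGF4 group and the PBS group each held 4 samples of total RNA from skin in a 2 mm zone round wounds of C57BL/6 mice aged 6 to 8 weeks, at day 6. No genotype other than the strain was labelled, and no source used here states the dose of rFGF4. Nothing in the labels says that the samples of a group came from separate mice, so the p-values measure the spread between these libraries.

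The table does not hold mouse genes. All 58304 gene identifiers were human and 0 were mouse, and gene positions are the table's own, with no genome build named in it. The groups below are the ones the column names give, and no value is attributed to mouse wounds. Of 8 keratinocyte markers, 8 had a mean FPKM (fragments mapped to a gene, scaled to its length and to the library's depth) of at least 1. This was so for 1 of 8 endothelial markers (CDH5), 0 of 6 fibroblast markers, 0 of 5 pericyte and smooth muscle markers, 1 of 6 leukocyte markers and 0 of 4 platelet markers. The 1 leukocyte marker was CD68, a lysosomal protein of macrophages that other cells also make, and PTPRC, the pan-leukocyte phosphatase, had at most 8 counts in any library. The libraries held 62044121 to 73680756 counts. Replicate 4 of each group lay apart on the second principal component, at −23.16 in rFGF4 replicate 4 with the other rFGF4 libraries at 8.41 to 23.75, and at −19.25 in PBS replicate 4 with the other PBS libraries at −5.43 to 1.82.

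VEGF ligands are secreted dimers that bind receptor tyrosine kinases on endothelial cells. VEGFA drives the sprouting and permeability of blood vessels, VEGFC acts mainly on lymphatic vessels, and VEGFB and PGF bind the receptor FLT1. PDGF ligands are related dimers that act on fibroblasts and on the mural cells that coat vessels. In skin, wound keratinocytes are a known source of VEGFA, which reaches endothelial cells of the dermis below. Neuropilins are transmembrane co-receptors shared by VEGF ligands and class 3 semaphorins, and they signal with VEGF receptors or with plexins.

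Of the 9 members, 8 passed the filter, a mean of 1 FPKM or more across all 8 libraries, and were tested. In the rFGF4 libraries VEGFA, VEGFC, PDGFB and NRP2 rose and PDGFC fell, while VEGFB, PDGFA and NRP1 did not pass. PGF was below the filter. The 4 that rose stand beside a background of 5.49% of 11536 tested genes that rose, and the 1 that fell beside 4.54% that fell, with 10.0% called in either direction (edgeR quasi-likelihood test, Benjamini-Hochberg adjusted p under 0.05). The CPM (counts relative to the effective library size) of the groups did not overlap for the same 5 tested members, against 10.1% of tested genes with all rFGF4 libraries above all PBS libraries and 9.26% with all below. The median log2 fold change over the 8 tested members was 0.26, beside 0.00 over all genes tested. Without replicate 4 of both groups, an alternative chosen after seeing the data, the same 4 members rose and PDGFC did not pass (−0.35, edgeR adjusted p = 0.106). With any 1 library left out, VEGFA, VEGFC and PDGFB passed in 8 of 8 fits, but NRP2 and PDGFC each in only 2 of 8. In bulk RNA, fewer cells of a type and less RNA per cell cannot be told apart.

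**Figure D1:**
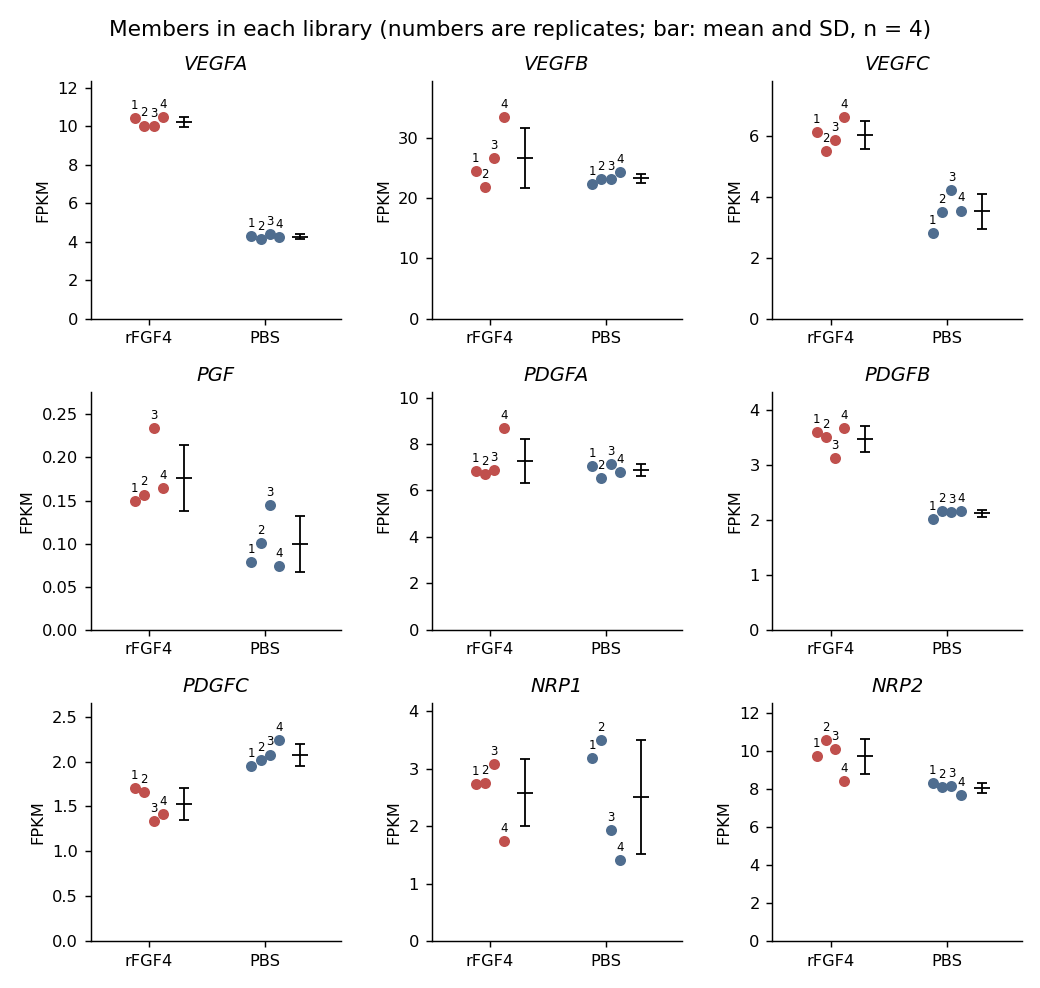
FPKM of the 9 members in each library, 1 panel per gene, with rFGF4 (red) left of PBS (blue), replicate numbers over the points, and the mean and SD of 4 libraries as a black bar; every axis starts at 0. VEGFA stands at 10.0 to 10.5 FPKM in rFGF4 libraries and at 4.12 to 4.41 FPKM in PBS libraries, while NRP1 spreads over 1.74 to 3.09 and 1.40 to 3.51 FPKM in the same groups.

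VEGFA (ENSG00000112715, chr6:43770184-43786487, plus strand) was the member with the clearest change. Its FPKM was 10.4, 10.0, 10.0 and 10.5 in rFGF4 replicates 1 to 4, against 4.29, 4.12, 4.41 and 4.23 in PBS replicates 1 to 4. All rFGF4 libraries were high and close to each other, and no PBS library came near them. Its CPM averaged 180 ± 8.34 in rFGF4 libraries and 73.7 ± 1.43 in PBS libraries (SD, n = 4 each), which is 1.29 on the log2 scale (SE 0.05, edgeR adjusted p = 5.22e-05), or 2.44-fold with a 95% interval of 2.24 to 2.66. By the unadjusted p it ranked 1 of 11536 genes, although by size of change it ranked 42 among the 1157 genes called. The coefficient of variation of its FPKM was 2.41% in rFGF4 libraries and 2.84% in PBS libraries, where that of VEGFC was 7.76% and 16.7%. In PBS libraries PDGFB (3.19%), NRP2 (3.32%), VEGFB (3.36%) and PDGFA (3.81%) varied nearly as little as VEGFA. In rFGF4 libraries these had 6.96%, 9.48%, 18.5% and 12.8%. The table lists 32 transcripts under VEGFA and 1 value per library for all of them, so its splice forms, which differ in how they bind heparan sulfate and neuropilins, were not analysed here.

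VEGFC (ENSG00000150630, chr4:176683538-176792922, minus strand) was the other VEGF ligand to rise. Its FPKM was 6.13, 5.49, 5.87 and 6.61 in rFGF4 replicates 1 to 4, against 2.80, 3.48, 4.23 and 3.55 in PBS replicates 1 to 4. The groups did not overlap, but PBS replicate 3 was high and PBS replicate 1 low within their group. CPM averaged 19.2 ± 2.01 in rFGF4 libraries and 11.0 ± 1.79 in PBS libraries (SD, n = 4 each), which is 0.80 on the log2 scale (SE 0.14, edgeR adjusted p = 0.00836), or 1.75-fold with a 95% interval of 1.41 to 2.17.

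VEGFB (ENSG00000173511, chr11:64234538-64238793, plus strand), a ligand of FLT1, was the most abundant member per length in either group. Its FPKM was 24.5, 21.9, 26.7 and 33.4 in rFGF4 replicates 1 to 4, against 22.4, 23.1, 23.2 and 24.3 in PBS replicates 1 to 4. The groups overlapped, and rFGF4 replicate 4 was the high library. The log2 fold change was 0.23 (SE 0.14, edgeR adjusted p = 0.364), with a 95% interval of −0.09 to 0.54, and it was 0.07 without rFGF4 replicate 4.

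PGF (ENSG00000119630, chr14:74941834-74955626, minus strand), the placental growth factor, was scarce. It had 78, 80, 114 and 86 counts in rFGF4 replicates 1 to 4, against 41, 46, 63 and 34 counts in PBS replicates 1 to 4. All libraries lay above the floor of 12 counts, taken as 3 fragments worth about 4 counts each, and the groups did not overlap. In FPKM it reached 0.149 to 0.234 in rFGF4 libraries and 0.0741 to 0.145 in PBS libraries. With no filter on low values its log2 fold change was 0.87 (SE 0.29, edgeR adjusted p = 0.189), which did not pass, where 1.52% of 29674 genes with any count rose.

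The ratio of VEGFA to VEGFB was tested to ask whether 2 members of a class moved unequally. The 3 ratios of members reuse the values of the tests on single genes, so they add no independent support to those. In FPKM, VEGFA stood at 0.425, 0.459, 0.375 and 0.314 of VEGFB in rFGF4 replicates 1 to 4, against 0.192, 0.178, 0.190 and 0.174 in PBS replicates 1 to 4. The ratio was higher in every rFGF4 library, and lowest of them in replicate 4, where VEGFB was high. The log2 ratio was 1.09 higher in rFGF4 libraries, with means of −1.36 ± 0.24 in rFGF4 libraries and −2.45 ± 0.07 in PBS libraries (SD, n = 4 each; two-sided exact permutation p = 0.0286, adjusted p = 0.0429 over 3 ratios, where 0.0286 is the smallest p that 4 against 4 allows). Of the summed FPKM of the 4 VEGF ligands, VEGFA made up 24.0 ± 2.62% in rFGF4 libraries and 13.7 ± 0.597% in PBS libraries. VEGFB made up 61.5 ± 3.43% and VEGFC 14.1 ± 0.839% in rFGF4 libraries, against 74.7 ± 1.50% and 11.3 ± 1.55% in PBS libraries. VEGFB thus remained the largest of the 4 in every library.

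**Figure D2:**
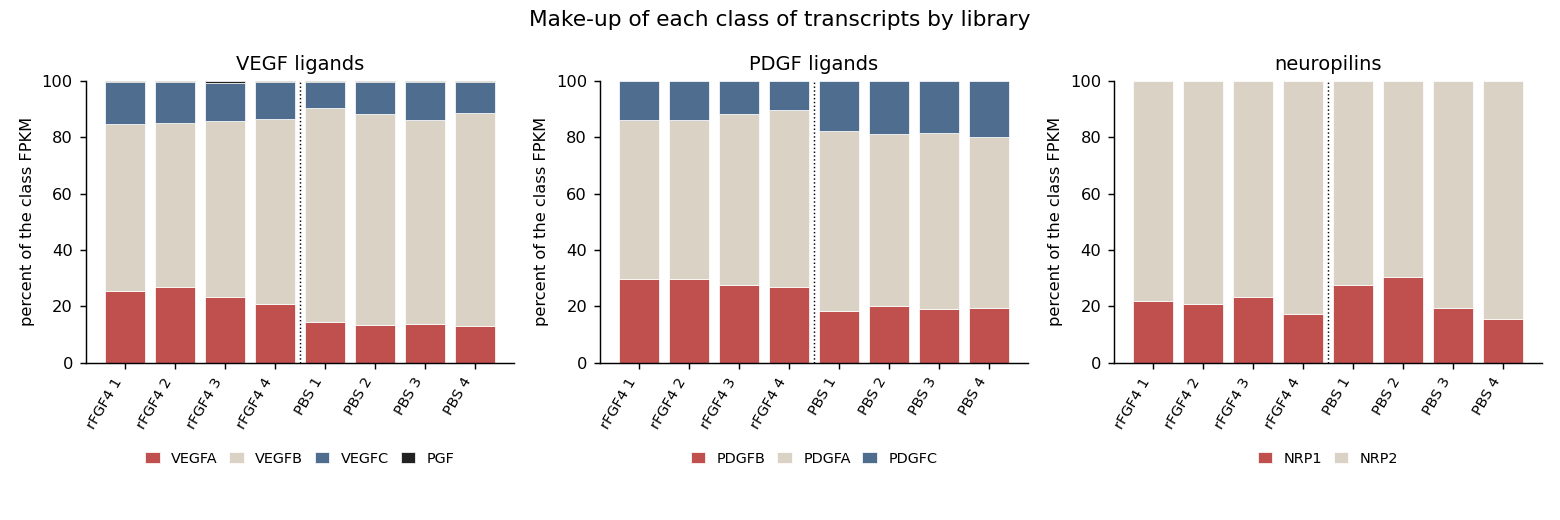
Share of each member in the summed FPKM of its class, in percent, as stacked bars for each library, with the 4 rFGF4 libraries left of the dotted line and the 4 PBS libraries right of it. VEGFA takes 20.7 to 26.7% of the VEGF ligands in rFGF4 libraries and 13.2 to 14.5% in PBS libraries, and PDGFB takes 26.7 to 29.6% and 18.4 to 20.2% of the PDGF ligands in the same groups; PGF is at most a thin line at the top.

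Among the PDGF ligands, PDGFB rose and PDGFC fell. PDGFB (ENSG00000100311, chr22:39223359-39244751, minus strand) encodes the B chain, which recruits pericytes to vessels. Its FPKM was 3.60, 3.51, 3.13 and 3.67 in rFGF4 replicates 1 to 4, against 2.02, 2.16, 2.14 and 2.16 in PBS replicates 1 to 4. Every rFGF4 library stood above every PBS library, with rFGF4 replicate 3 the lowest of its group. CPM averaged 15.9 ± 1.23 in rFGF4 libraries and 9.55 ± 0.394 in PBS libraries (SD, n = 4 each), which is 0.74 on the log2 scale (SE 0.09, edgeR adjusted p = 0.00172), or 1.67-fold with a 95% interval of 1.46 to 1.91.

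PDGFC (ENSG00000145431, chr4:156760454-156971799, minus strand) encodes a chain that is secreted in latent form and must be cleaved before it binds receptors. Its FPKM was 1.70, 1.67, 1.34 and 1.42 in rFGF4 replicates 1 to 4, against 1.95, 2.01, 2.08 and 2.25 in PBS replicates 1 to 4. The groups did not overlap, and the gap between rFGF4 replicate 1 and PBS replicate 1 was the narrowest. CPM averaged 11.2 ± 1.05 in rFGF4 libraries and 14.9 ± 1.06 in PBS libraries (SD, n = 4 each), and the gene fell by 0.42 on the log2 scale (SE 0.10, edgeR adjusted p = 0.0314), 0.750-fold with a 95% interval of 0.643 to 0.874. The call was near the threshold: it ended without rFGF4 replicate 3 or 4 or PBS replicate 1, 2, 3 or 4 (edgeR adjusted p = 0.0554 to 0.0848) and with no filter on low values (0.0750), although the log2 fold change stayed at −0.46 to −0.36 with any 1 library left out.

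PDGFA (ENSG00000197461, chr7:497258-520208, minus strand), the A chain, which acts through PDGFRA, was the most abundant PDGF ligand per length. Its FPKM was 6.85, 6.71, 6.86 and 8.67 in rFGF4 replicates 1 to 4, against 7.03, 6.53, 7.12 and 6.80 in PBS replicates 1 to 4. The groups overlapped and rFGF4 replicate 4 alone was high. The log2 fold change was 0.11 (SE 0.11, edgeR adjusted p = 0.583), with a 95% interval of −0.13 to 0.36, and −0.0096 without rFGF4 replicate 4. In FPKM, PDGFB stood at 0.525, 0.524, 0.455 and 0.423 of PDGFA in rFGF4 replicates 1 to 4, against 0.287, 0.330, 0.300 and 0.318 in PBS replicates 1 to 4. The log2 ratio was 0.64 higher in rFGF4 libraries, with means of −1.06 ± 0.15 in rFGF4 libraries and −1.70 ± 0.09 in PBS libraries and no overlap (SD, n = 4 each; two-sided exact permutation p = 0.0286, adjusted p = 0.0429 over 3 ratios). PDGFC made up 12.5 ± 1.81% of the summed FPKM of the 3 PDGF ligands in rFGF4 libraries and 18.7 ± 0.968% in PBS libraries, so that PDGFB and PDGFC, which were level in PBS libraries, stood apart in rFGF4 libraries.

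Of the neuropilins, NRP2 rose and NRP1 did not pass, but the test of their ratio, given below, did not pass either. NRP2 (ENSG00000118257, chr2:205681990-205798133, plus strand), a co-receptor for VEGFC and for SEMA3F, had 9.75, 10.6, 10.1 and 8.43 FPKM in rFGF4 replicates 1 to 4, against 8.32, 8.10, 8.14 and 7.68 FPKM in PBS replicates 1 to 4. The rFGF4 libraries were all higher, but replicate 4 only just. CPM averaged 164 ± 11.7 in rFGF4 libraries and 134 ± 3.14 in PBS libraries (SD, n = 4 each), which is 0.29 on the log2 scale (SE 0.06, edgeR adjusted p = 0.0235), or 1.22-fold with a 95% interval of 1.11 to 1.35. The call ended without rFGF4 replicate 1 or 3 or PBS replicate 1, 2, 3 or 4 (edgeR adjusted p = 0.0554 to 0.0729), and it ended with limma on log2(FPKM + 1) (adjusted p = 0.0735). The log2 fold change with any 1 library left out was 0.26 to 0.33.

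NRP1 (ENSG00000099250, chr10:33177492-33336262, minus strand), a co-receptor for VEGFA and SEMA3A, was the most variable tested member. Its FPKM was 2.74, 2.76, 3.09 and 1.74 in rFGF4 replicates 1 to 4, against 3.18, 3.51, 1.94 and 1.40 in PBS replicates 1 to 4. The rFGF4 libraries lay within the wider range of the PBS libraries, with replicate 4 lowest in each group and PBS replicates 1 and 2 above all others. The coefficient of variation of its FPKM was 22.6% in rFGF4 libraries and 39.9% in PBS libraries. The log2 fold change was 0.06 (SE 0.29, edgeR adjusted p = 0.927), and the 95% interval of −0.61 to 0.73 leaves room for a change in either direction as large as that of NRP2. The ratio of NRP2 to NRP1 in FPKM was 3.56, 3.84, 3.26 and 4.85 in rFGF4 replicates 1 to 4, against 2.61, 2.31, 4.20 and 5.47 in PBS replicates 1 to 4. The log2 ratio was 0.16 higher in rFGF4 libraries, with means of 1.94 ± 0.24 and 1.78 ± 0.58 in rFGF4 and PBS libraries and overlapping groups (SD, n = 4 each; two-sided exact permutation p = 0.629, adjusted p = 0.629 over 3 ratios).

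The order of the members per length differed between the groups. In rFGF4 libraries VEGFB led at 26.6 ± 4.93 FPKM, followed by VEGFA at 10.2 ± 0.247 FPKM and NRP2 at 9.71 ± 0.920 FPKM, whose libraries overlapped. PDGFA at 7.27 ± 0.934 FPKM overlapped with NRP2 but not with VEGFC at 6.03 ± 0.468 FPKM, below which came PDGFB at 3.48 ± 0.242, NRP1 at 2.58 ± 0.584, PDGFC at 1.53 ± 0.179 and PGF at 0.176 ± 0.0389 FPKM. In PBS libraries VEGFB at 23.3 ± 0.780 FPKM was followed by NRP2 at 8.06 ± 0.268, PDGFA at 6.87 ± 0.262 and VEGFA at 4.26 ± 0.121 FPKM. VEGFC at 3.52 ± 0.588 and NRP1 at 2.51 ± 1.0 FPKM came next, and these overlapped with neighbours on at least 1 side, as did PDGFB at 2.12 ± 0.0676 and PDGFC at 2.07 ± 0.126 FPKM (SD, n = 4 in each group). VEGFA thus stood below NRP2 and PDGFA in every PBS library, and above PDGFA in every rFGF4 library.

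**Figure D3:**
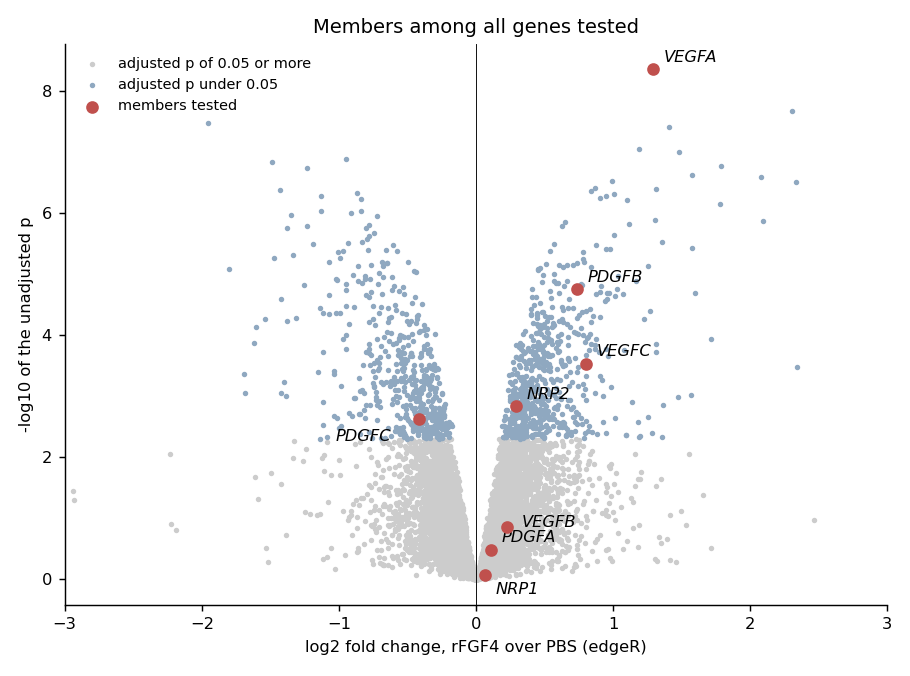
Log2 fold change, rFGF4 over PBS, on the horizontal axis and −log10 of the unadjusted edgeR p on the vertical axis for the tested genes, with genes past an adjusted p of 0.05 in blue-grey, others in light grey and the 8 tested members in red. VEGFA is the highest point, PDGFB, VEGFC and NRP2 lie to the right at lower heights and PDGFC to the left; 9 genes with changes beyond 3 in size, 0 of them past the threshold, are outside the axis.

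The receptors of these ligands were not measured at a usable level. The VEGF receptors FLT1 and FLT4 and the PDGF receptors PDGFRA and PDGFRB had 0 to 8 counts per library in the rFGF4 group and 0 to 8 counts in the PBS group, at or under the floor of 12 counts. KDR, the main signalling receptor for VEGFA, had 36, 14, 28 and 27 counts in rFGF4 replicates 1 to 4, against 12, 42, 17 and 11 counts in PBS replicates 1 to 4. These stayed under 0.1 FPKM in every library, so that a difference in receptors was not detectable at this depth. Of 6 receptors and receptor-like genes, with PDGFRL as the sixth, 0 passed the filter, and 0 of the other 2 ligands, VEGFD and PDGFD, did. The endothelial marker list was low, with a summed level of 3.37 to 4.63 FPKM in rFGF4 libraries and 2.04 to 3.42 FPKM in PBS libraries. These ranges overlapped only between 3.37 and 3.42 FPKM. CDH5, an endothelial cadherin and the 1 marker of the list that was tested, did not pass (log2 fold change 0.33, edgeR adjusted p = 0.0861). PECAM1, an endothelial adhesion molecule, averaged 0.664 FPKM in rFGF4 libraries and 0.300 FPKM in PBS libraries. VWF, the von Willebrand factor, averaged 1.27 FPKM and 0.679 FPKM in the same groups. Also higher in rFGF4 libraries were TIE1 (0.263 and 0.117 FPKM), TEK (0.0318 and 0.0173 FPKM) and EMCN (0.0332 and 0.0137 FPKM). TEK and EMCN had at most 23 and 22 counts in any library. The tight junction protein CLDN5 averaged 0.113 FPKM and 0.108 FPKM and the transcription factor ERG 0.0529 FPKM and 0.0486 FPKM. The keratinocyte list summed to 2253 to 2372 FPKM in rFGF4 libraries and 2403 to 2700 FPKM in PBS libraries, with no overlap. Most of that sum was KRT5 (834 and 987 FPKM) and KRT14 (958 and 1093 FPKM, means of the rFGF4 and PBS libraries). Of this list DSG3 fell (log2 fold change −0.58, edgeR adjusted p = 0.0181) and the other markers did not pass. KRT5 had −0.22 and KRT14 −0.17, while TP63 had 0.03, COL17A1 0.10, ITGB4 0.20, KRT6A 0.10 and KRT17 0.10. The list thus did not move in 1 direction. The fibroblast list summed to 0.411 to 0.511 FPKM in rFGF4 libraries and 0.776 to 0.864 FPKM in PBS libraries, and the pericyte and smooth muscle list to 0.983 to 1.43 FPKM and 1.50 to 1.80 FPKM in the same groups. Neither list overlapped between the groups. Of single tested genes, 10.1% had all rFGF4 libraries above all PBS libraries and 9.26% all below. Every marker of these 2 lists stayed under 1 FPKM. COL1A2 (0.0221 and 0.0133 FPKM), ACTA2 (0.546 and 0.454 FPKM) and PDGFRB (0.00303 and 0 FPKM) averaged higher in rFGF4 than in PBS libraries. The other markers averaged lower, among them COL3A1 (0.180 and 0.370 FPKM) and NOTCH3 (0.327 and 0.704 FPKM). The part of these lists in the values of the ligands was not tested.

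The partners of the neuropilins included genes that moved in both directions. SEMA3F, a semaphorin that binds NRP2 and opposes vessel growth, had 3.77, 3.24, 3.50 and 3.37 FPKM in rFGF4 replicates 1 to 4, against 6.40, 6.64, 5.55 and 6.14 FPKM in PBS replicates 1 to 4. The groups were well apart, and SEMA3F fell by 0.81 on the log2 scale (SE 0.09, edgeR adjusted p = 0.00142). Of 7 class 3 semaphorins 4 were tested, of which 1 fell and 3 did not pass, beside 4.54% of all tested genes that fell. Those that did not pass were SEMA3A at a log2 fold change of 0.26 (SE 0.10), SEMA3C with −0.53 (SE 0.16) and SEMA3D with −0.07 (SE 0.22). PLXNA1, a plexin that carries semaphorin signals with neuropilins, had 43.0, 44.1, 35.8 and 28.6 FPKM in rFGF4 replicates 1 to 4, against 26.8, 23.3, 27.6 and 23.2 FPKM in PBS replicates 1 to 4. Replicate 4 was the lowest rFGF4 library, just above the PBS libraries, and PLXNA1 rose by 0.61 (SE 0.12, edgeR adjusted p = 0.0163). The call ended without PBS replicate 2 (log2 fold change 0.57, adjusted p = 0.0602). Of the 4 tested genes among 5 plexins and GIPC1, an adaptor of NRP1, 1 rose and 3 did not pass, beside 5.49% of all tested genes that rose.

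Of the enzymes that process these ligands, 1 of 6 tested rose and 5 did not pass, from a list of 9. This stands beside 5.49% of all tested genes that rose. FURIN, a proprotein convertase that cleaves the precursors of VEGFC and of the PDGF A and B chains, had 17.7, 15.4, 17.0 and 16.0 FPKM in rFGF4 replicates 1 to 4, against 10.9, 11.4, 11.5 and 11.4 FPKM in PBS replicates 1 to 4. All rFGF4 libraries were higher, and FURIN rose by 0.57 on the log2 scale (SE 0.06, edgeR adjusted p = 0.00146). The log2 fold changes of those that did not pass lay between −0.17 for PCSK5 and 0.05 for PLAT, with PLAU at −0.06 (SE 0.08) and ST14 at −0.02 (SE 0.06). CCBE1 and ADAMTS3, which activate VEGFC, were below the filter with CCBE1 at mean levels of 0.0908 FPKM in rFGF4 libraries and 0.106 FPKM in PBS libraries.

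VEGFA is a classical target of the hypoxia-inducible factors (HIF). Of the 9 other tested hypoxia targets (list of 12), 0 passed the edgeR test, beside 10.0% of all tested genes called. A list of 9 is too short to tell 0 from that share. Their median log2 fold change was −0.11, with a range of −0.57 for ADM to 0.36 for PDK1. LDHA had −0.03 (SE 0.07), SLC2A1 −0.06 (SE 0.07), PGK1 −0.13 (SE 0.05) and NDRG1 −0.17 (SE 0.05). Among the 3 targets below the filter was ANGPTL4, a lipase inhibitor, with 0.825, 0.509, 0.767 and 0.837 FPKM in rFGF4 replicates 1 to 4, against 0.241, 0.199, 0.276 and 0.276 FPKM in PBS replicates 1 to 4. All rFGF4 libraries were higher, and with no filter on low values ANGPTL4 rose by 1.60 on the log2 scale (edgeR adjusted p = 0.00885). CA9, also below the filter, averaged 0.0264 FPKM in rFGF4 libraries and 0.106 FPKM in PBS libraries. BNIP3, the last of the 3, averaged 0.390 and 0.431 FPKM in the same groups. With no filter these 2 did not pass, at log2 fold changes of −1.75 and −0.11 (edgeR adjusted p = 0.516 and 0.844). Among the HIF subunits and oxygen sensors 0 of 7 tested genes passed, with HIF1A, the oxygen-regulated subunit, at 0.21 (SE 0.12) and EPAS1, its paralog, at −0.15 (SE 0.05). Neither did any of the 4 proteins that bind VEGFA mRNA, ZFP36 at 0.38 (SE 0.21), ZFP36L1 at 0.26 (SE 0.09), ELAVL1 at 0.11 (SE 0.08) and HNRNPL at −0.01 (SE 0.07). Lists of 7 and of 4 are likewise too short to tell 0 from the 10.0% of all tested genes called. HIF activity is set largely by protein stability, which these libraries do not measure, and its part in the rise of VEGFA was not tested.

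Among other secreted factors that act on vessels, 1 of 2 tested rose, from a list of 8, beside 5.49% of all tested genes that rose. THBS1, thrombospondin 1, an inhibitor of angiogenesis, rose by 0.53 (SE 0.12, edgeR adjusted p = 0.0312), with 54.3 to 85.2 FPKM in rFGF4 libraries, lowest in replicate 4, and 46.1 to 59.0 FPKM in PBS libraries, so that the groups overlapped. The call ended without rFGF4 replicate 1, 2 or 3 or PBS replicate 1, 2 or 4 (adjusted p = 0.0621 to 0.0959), with no filter on low values (0.0515) and with limma on log2(FPKM + 1) or log2(FPKM + 0.1) (0.0645 and 0.0657). CCN1 had 0.31 (SE 0.09, adjusted p = 0.0697). Below the filter, CXCL8, a chemokine that also acts on endothelium, had 1.40, 1.72, 1.48 and 1.06 FPKM in rFGF4 replicates 1 to 4, against 0.433, 0.359, 0.376 and 0.172 FPKM in PBS replicates 1 to 4. All rFGF4 libraries were higher, and with no filter on low values CXCL8 passed (log2 fold change 2.09, edgeR adjusted p = 0.00525). Over all lists other than the members, 3 of 36 tested genes rose and 1 fell, a share near the 10.0% of all tested genes called, with a median log2 fold change of −0.03 beside 0.00 over all genes tested.

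**Figure D4:**
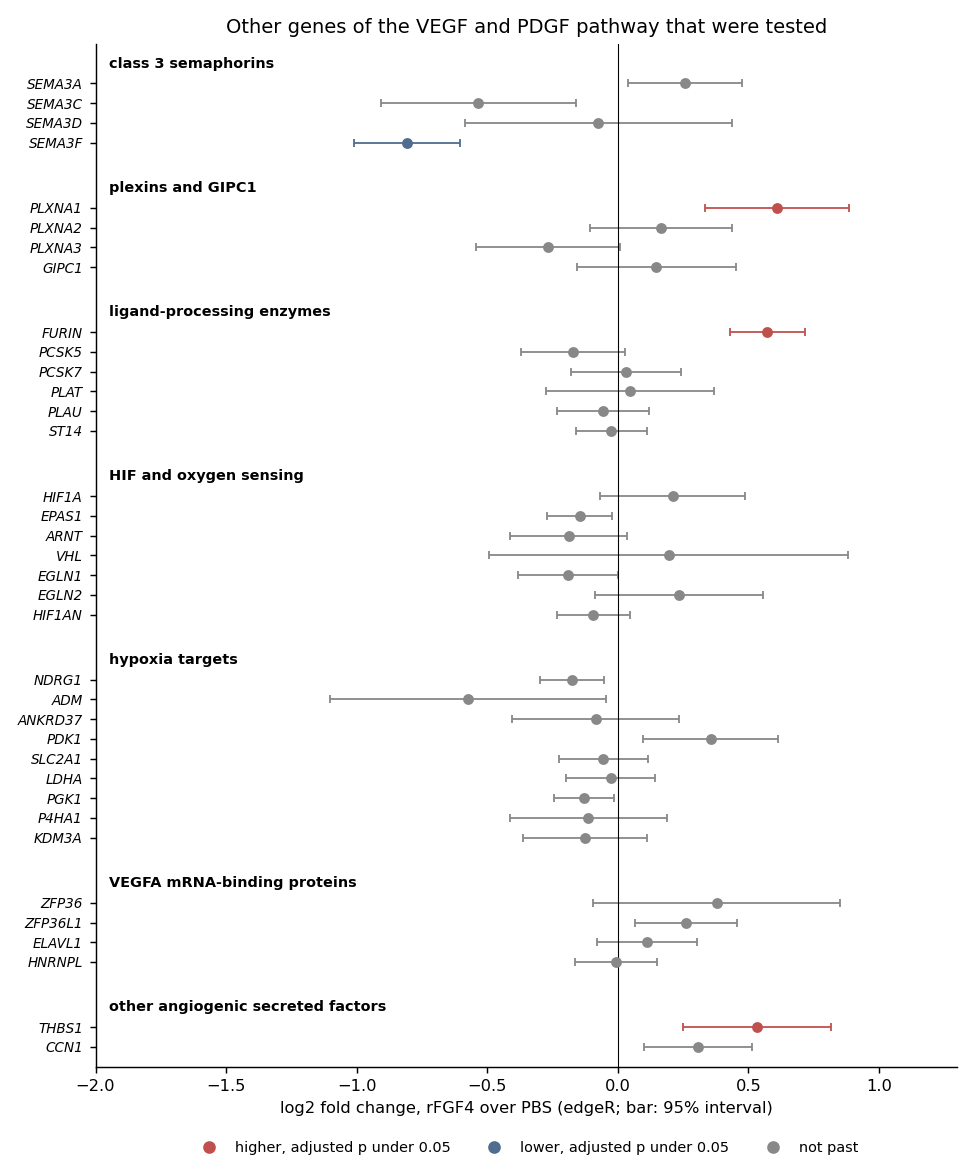
Log2 fold change, rFGF4 over PBS, with its 95% interval for the 36 tested genes of the pathway lists, grouped by role; red marks genes that rose, blue genes that fell and grey those that did not pass an edgeR adjusted p of 0.05. PLXNA1 (0.61), FURIN (0.57) and THBS1 (0.53) lie to the right and SEMA3F (−0.81) to the left, while the HIF and hypoxia target lists hold no coloured point.

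The genes whose pattern over the 8 libraries was most like each changed member were read by Pearson's correlation of log2 CPM, a measure that the shared difference between groups dominates. For VEGFA they were ETV4, an ETS transcription factor (r = 0.996), LYAR, a nucleolar protein (0.995), and PLD6, a mitochondrial phospholipase (0.995), which rose by 1.41, 0.84 and 0.95 on the log2 scale. For PDGFB they were LYAR (0.989), the integrin chain ITGB5 (0.989) and the ribosome assembly factor RRS1 (0.988). For VEGFC they were FARSA (0.989) and FARSB (0.985), the subunits of a phenylalanyl-tRNA synthetase, and MON1A (0.981), and for NRP2 they were NAMPT, an enzyme of NAD salvage (0.987), MCFD2 (0.985) and NBPF9 (0.984), of which NBPF9 belongs to a family of near-identical copies whose counts are uncertain. For PDGFC they were LLGL2 (0.980), the glutamine synthetase GLUL (0.976) and SEPSECS (0.959), which fell by 0.26, 0.37 and 0.53.

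Genes that overlap the members in the table had at most 9 counts in any library, seen at NRP1, which had 1261 to 3219 counts. VEGFB, PGF and PDGFA overlapped no other gene of the table.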

How the data were processed

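The authors deposited 1 gene table with an FPKM and a count column for each of 8 libraries, per the file headers. The aligner HISAT2 2.0 and the quantifier StringTie 1.3.0 are listed in the submitters' processing notes without their steps. Genome build and annotation were not given in the sources used here, nor whether counting used strand. FPKM has 0.0001 in place of 0 and is shown here as 0. The deposited counts are whole numbers that pile up at 4 (9781 entries, against 3485 at 3 and 1977 at 5), so 1 fragment was taken as about 4 counts and no Poisson intervals are given. Columns named FGF4 and C were taken as rFGF4 and PBS, the control, with the replicate number of the title.

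Of 58825 rows, 521 (Y-linked genes, XIST, TSIX) were dropped. Genes whose mean FPKM reached 1 were tested with edgeR 4.0.16 in R 4.3.3 (TMM, glmQLFit, glmQLFTest, two-sided, Benjamini-Hochberg over 11536 genes, threshold 0.05). CPM uses TMM factors from the tested genes. SEs are implied by the test statistic. Ratios of members were tested by exact permutation over libraries. DESeq2 1.42.0, limma 3.58.1 on log2(FPKM + 1) and log2(FPKM + 0.1), other filters, median-of-ratios scaling, a replicate block and leaving out libraries were alternatives. The tests were checked on simulated counts. The members and gene lists were chosen with earlier results of these data known. Named were every member, every pathway-list gene past the threshold and the 3 tested genes most like each called member, and other list genes were named after their values were seen. MCAM, a pericyte marker of the lists, was not analysed here. No human sequences were in the references used, so none are printed.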

Additional observations from a re-analysis of the deposited data

How the results depend on the processing

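The rises of VEGFA, VEGFC and PDGFB kept their direction and passed under all 17 alternatives run, at log2 fold changes of 1.09 to 1.31, 0.64 to 0.90 and 0.52 to 0.78. VEGFB did not pass under any of its 17. The number of genes called was 1828 by DESeq2 and 601 to 1166 with any 1 library left out, against 1157 in the test reported. The number of members called was 3 to 5 with 1 library left out, against 5. The number of pathway-list genes called was 8 by DESeq2, 7 with the replicate block and 2 to 6 with 1 library left out, against 4. The rise of NRP2 missed the threshold under limma, on log2(FPKM + 1) (0.24) as on log2(FPKM + 0.1) (0.26), and in 6 of the 8 fits that left out 1 library (0.27 to 0.30 in those 6, 0.26 to 0.33 in all 8). PDGFC did not pass with no filter (−0.41), with the replicate block (−0.42), without replicate 4 of both groups (−0.35, chosen after seeing the data), nor in 6 of 8 fits that left out 1 library (−0.45 to −0.36 in those 6, −0.46 to −0.36 in all 8). NRP1 changed sign without rFGF4 replicate 3 (−0.04), PBS replicate 3 (−0.05) or PBS replicate 4 (−0.13), within a range of −0.13 to 0.27, and PDGFA did without rFGF4 replicate 4 (−0.0096, range −0.0096 to 0.16) or replicate 4 of both groups (−0.0053). The ratio of NRP2 to NRP1 changed sign without PBS replicate 2 (−0.030, range −0.030 to 0.39). The ratios of VEGFA to VEGFB (1.09) and PDGFB to PDGFA (0.64) had an adjusted p of 0.188 in the exact sign-flip test with the replicate block, where 4 pairs cannot go below p = 0.125, so that test could not pass. The causes of these changes were not tested.

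The replicate numbers do not pair the samples by the labels, and same-numbered libraries deviated from their group means with correlations of 0.12, 0.06, −0.02 and 0.27 for numbers 1 to 4. In the replicate block 4 members were called, and PDGFC was the one lost. Depth limits what can be read of PGF, VEGFD, PDGFD and the receptors, each at no more than 114 counts in any library.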
